A study of Mus musculus with 12 samples.

Results

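The genes examined here are 10 genes of myelin lipid metabolism in oligodendrocytes, the myelinating glia of the brain: Ugt8a, Gal3st1, Fa2h, Cers2, Degs1, Elovl1, Elovl7, Aspa, Gltp and Plekhb1. They were chosen by symbol, as genes whose products make, lengthen, hydroxylate or handle the lipids of myelin. Earlier results of these data were known when they were chosen. Each gene matched 1 of the 46078 gene IDs of the table. All 10 passed the filter on low values (a mean of at least 10 normalized counts). RNA of whole hippocampus was sequenced in 12 libraries from C57BL/6 mice at postnatal day 25. The libraries form 4 groups of 3: wild-type males, wild-type females, and males and females heterozygous for the mutation that the labels write as CHD8 Asn2373LysfsX2. By its name this is a frameshift at residue 2373 of CHD8, a chromatin remodelling enzyme, and heterozygotes keep 1 wild-type allele. Whether replicate libraries stem from different mice is not given, so p-values here reflect only how far these libraries vary, part of which may be technical.

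Myelin membrane is unusually rich in galactolipids. Ceramide carrying a very long acyl chain, often hydroxylated, receives a galactose to give galactosylceramide, and part of this is sulfated to sulfatide. Both lipids are made mainly by oligodendrocytes in the brain, and mice that cannot make them form unstable myelin. In whole tissue, fewer oligodendrocytes and less RNA per oligodendrocyte cannot be told apart.

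The mutated gene was checked as a label control. Chd8 had 2751 to 2994 normalized counts in the wild-type libraries and 2383 to 2513 in the mutants, and it fell by 14.4% (log2 difference -0.22 ± 0.03, SE; limma adjusted p = 0.0289). With 1 library left out its limma adjusted p was up to 0.162. The call then held only without wild-type male 1 (0.0281) or without mutant male 3 (0.0251). A normalized count is a read count divided by the size factor of its library. Mutant libraries were shallower than every wild-type library (23721482 to 24654408 against 26912998 to 33327314 reads), so depth and genotype cannot be told apart. The lipid genes had between 441 reads (Gal3st1) and 9960 reads (Plekhb1) in a library. Neuronal, astrocyte and oligodendrocyte marker lists were present in all 12 libraries, but markers of the choroid plexus, the secretory tissue beside the hippocampus, set 3 libraries apart. The summed count of 10 such markers was 860 to 1022 in mutant males 2 and 3 and wild-type female 1, and 48083 to 172447 in the other 9. Averaged genotype differences are therefore also given without these 3 libraries where a call changed or the value moved by over 1.5 times.

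All 10 lipid genes had lower estimates in mutants than in wild type in each sex, 20 of 20 estimates, where 50.1% of all tested genes had a lower estimate on average, 49.4% in males and 49.5% in females. None of the 10 passed the threshold of an adjusted p of 0.05 by limma or by edgeR. Differences averaged over both sexes ran from -0.09 (Degs1) to -0.32 (Elovl7) on the log2(normalized count + 1) scale, with a median of -0.17, while the median of all 17496 tested genes was -7.27e-05. Their limma adjusted p-values were 0.336 to 0.626. Over all tested genes 1 was called (0.00572%), namely Chd8, by limma and by edgeR alike. An unadjusted p under 0.05 with a lower level was found for 9 of the 10 lipid genes, against 4.47% of all genes, the exception being Gal3st1. Since the genes were chosen with earlier results of these data known, these shares are a description. DESeq2 called 1 of the 10, Cers2 (adjusted p = 0.0461), where it called 0.588% of the genes it gave an adjusted p. In the fit without the 3 libraries low in choroid plexus markers, the 10 log2 differences ran from -0.10 (Degs1) to -0.40 (Ugt8a). Those of Cers2 and Gltp were -0.29 and -0.31. That fit leaves 1 mutant male, assumed to vary like the other groups, and this is mutant male 1, which had the lowest level of all 12 libraries for 8 of the 10 genes. Mutant male 3, which it leaves out, was the lowest library for 0 of the 10. With the 12 libraries kept and the choroid plexus marker level added as a covariate, limma called 0 of the 10. All 10 estimates were below 0 in both fits.

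**Figure D1:**
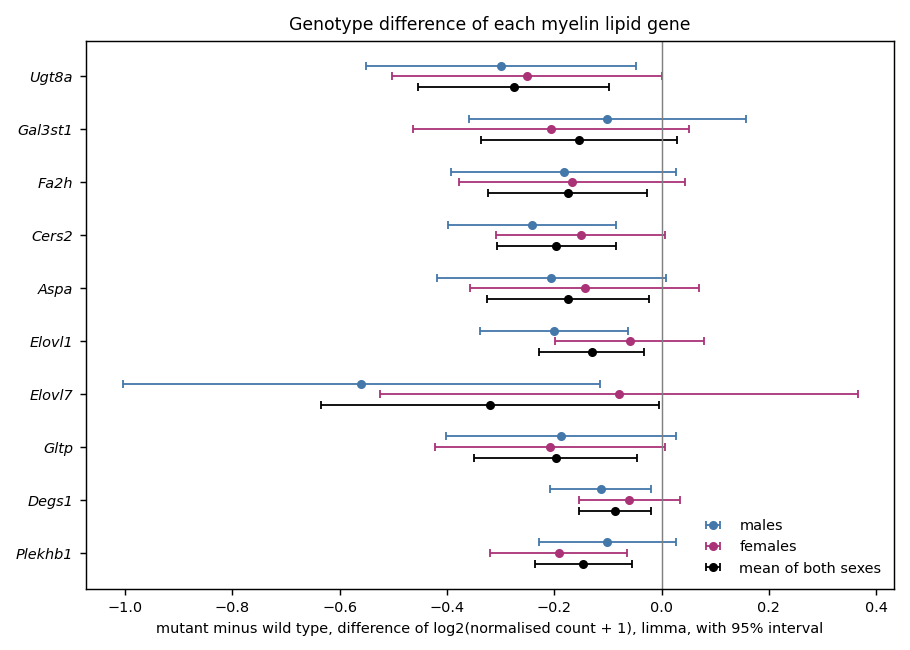
Mutant minus wild-type difference of log2(normalized count + 1) for each of the 10 genes, averaged over the sexes and in each sex, with 95% intervals from limma. All estimates lie below 0, from -0.09 to -0.32 in the average, and Elovl7 shows the widest gap between males (-0.56) and females (-0.08).

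The head-group enzymes of galactolipid synthesis are described in order of the pathway. Ugt8a (ENSMUSG00000032854, chromosome 3, 125865271-125938619 on GRCm38, minus strand) encodes the ceramide galactosyltransferase that makes galactosylceramide. Wild-type males had 6129.9, 5596 and 6020.2 normalized counts, against 4292, 4295 and 6001 in mutant males. Among females, wild-type libraries had 5906, 7011 and 6950.2 and mutants 5168, 6069.6 and 5442. Mutant males 1 and 2 and mutant females 1 and 3 lay below every wild-type library, while mutant male 3 lay among the wild-type males, so the genotypes overlapped in males, and mutant female 2 made them overlap in females. Ugt8a had a difference of -17.4% in mutants (95% interval -27.0% to -6.54%; log2 -0.28 ± 0.08, SE; limma adjusted p = 0.368). Single mutant males weighed on this value: without mutant male 3 the log2 difference was -0.36 (limma adjusted p = 0.0515). It was -0.24 without mutant male 1 (limma adjusted p = 0.364) and -0.24 without mutant male 2 (limma adjusted p = 0.579).

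Gal3st1 (ENSMUSG00000049721, chromosome 11, 3983636-3999326, plus strand) encodes the sulfotransferase that turns galactosylceramide into sulfatide. Wild-type males had 641, 555 and 645 normalized counts and mutant males 487, 534 and 713, the highest male value being that of a mutant. Wild-type females had 684, 807 and 771, all above the 633, 665 and 657 of mutant females. The genotypes did not overlap in females and overlapped in males. Averaged over the sexes its difference was -10.1% (95% interval -20.8% to 2.02%; log2 -0.15 ± 0.08; limma adjusted p = 0.626). This log2 value rested on single libraries: it was -0.097 without mutant male 1 (adjusted p = 0.686) and -0.23 without mutant male 3 (adjusted p = 0.198). Without the 3 libraries low in choroid plexus markers it was -0.30. The male difference of -0.10 was 0.012 without mutant male 1 and -0.26 without mutant male 3.

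Sequence upstream of the start sites is shown for the pair of head-group enzymes and for both elongases, of which Elovl7 stood apart across libraries. Each line gives the 250 bases before a RefSeq start site on GRCm38.p6, 5′ to 3′ on the gene's strand, with matches to 6 searched motifs in capitals. The regions are chr3:125938653-125938902 (minus strand, Ugt8a), chr11:3983386-3983635 (plus strand, Gal3st1), chr4:118427843-118428092 (plus strand, Elovl1) and chr13:108214154-108214403 (plus strand, Elovl7), and none overlaps an annotated exon.
Ugt8a: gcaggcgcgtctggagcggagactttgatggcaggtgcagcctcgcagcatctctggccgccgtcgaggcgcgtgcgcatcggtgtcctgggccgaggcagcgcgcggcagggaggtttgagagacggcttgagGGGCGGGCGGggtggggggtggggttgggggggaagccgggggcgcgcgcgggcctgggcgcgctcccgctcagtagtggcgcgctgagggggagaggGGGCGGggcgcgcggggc
Gal3st1: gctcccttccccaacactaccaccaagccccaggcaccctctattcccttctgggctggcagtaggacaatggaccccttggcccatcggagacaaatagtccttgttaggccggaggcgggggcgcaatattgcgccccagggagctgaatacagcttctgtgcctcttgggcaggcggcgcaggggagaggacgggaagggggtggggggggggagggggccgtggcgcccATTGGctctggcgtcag
Elovl1: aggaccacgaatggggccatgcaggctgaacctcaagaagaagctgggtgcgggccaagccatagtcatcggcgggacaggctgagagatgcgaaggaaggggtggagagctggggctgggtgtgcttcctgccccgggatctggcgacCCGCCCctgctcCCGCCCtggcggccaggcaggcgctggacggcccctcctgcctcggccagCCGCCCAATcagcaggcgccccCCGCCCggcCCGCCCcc
Elovl7: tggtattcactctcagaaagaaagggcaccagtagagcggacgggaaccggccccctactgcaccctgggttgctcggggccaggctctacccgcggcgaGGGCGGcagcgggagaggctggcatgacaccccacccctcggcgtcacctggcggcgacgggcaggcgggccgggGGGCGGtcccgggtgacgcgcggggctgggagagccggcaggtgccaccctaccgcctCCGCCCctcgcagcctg
RefSeq windows were found for 9 of the 10 genes (14 windows, all but Fa2h). The motifs, searched on both strands, were the GC box GGGCGG, the box CCAAT, the SOX-type core ACAAAG, its variant AACAAT, and the MYRF-type forms CTGGCAC as well as CTGGTAC. The GC box occurred 3 times before Ugt8a, where 2 of the matches overlap, 5 times before Elovl1 and 3 times before Elovl7, and was not among the letters shown for Gal3st1. CCAAT occurred 1 time before Gal3st1 and 1 time before Elovl1, where it overlaps a GGGCGG match. Over 32851 windows of the same length, 32.7% held GGGCGG and 33.8% held CCAAT. Of the 14 windows of the 9 genes, 6 held GGGCGG and 8 held CCAAT, in at least 1 window of 5 and 6 genes. ACAAAG was found in a window of Plekhb1 alone (16.5% of all windows) and AACAAT in that of Aspa alone (9.42%), and neither MYRF-type form in any window of the 9 genes (4.19% of all windows hold the form with C at its variable base and 1.83% that with T). The Ugt8a, Elovl7 and Elovl1 stretches held 32, 25 and 18 CG dinucleotides and that of Gal3st1 held 11, where the median over all windows was 6. These matches describe letters and say nothing of bound factors, and none of the 6 motifs was found for all 9 genes.

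The enzymes that build and modify the ceramide backbone were Cers2, Degs1 and Fa2h. Cers2 (ENSMUSG00000015714, chromosome 3, 95314791-95323599, plus strand) encodes the ceramide synthase that attaches very long acyl chains. Males had 3461, 3151 and 3426 normalized counts as wild type against 2592, 2835 and 3078 as mutants, and females 3265, 3795 and 3756 against 3066, 3402 and 3259. All mutant males lay below all wild-type males, and in females 2 of the 3 mutants lay below the lowest wild-type library. Cers2 had a difference of -12.7% (95% interval -19.2% to -5.72%; log2 -0.20 ± 0.05; limma adjusted p = 0.336), and it had the smallest unadjusted p of the 10 genes (0.00230). Its exons share 75 bases with those of Setdb1 and 144 with those of the antisense gene 6330562C20Rik, both on the other strand. The library kit does not keep strand, so reads there could not be assigned to a gene.

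Degs1 (ENSMUSG00000038633, chromosome 1, 182275772-182282804, minus strand) encodes the desaturase that turns dihydroceramide into ceramide, a step used by all cells. Wild-type males had 2621, 2522 and 2645 normalized counts and mutant males 2418, 2378 and 2403, without overlap. Wild-type females had 2492, 2646 and 2837 and mutant females 2546, 2519 and 2573, which overlapped. Its difference was the smallest of the 10, -5.84% (95% interval -10.1% to -1.40%; log2 -0.09 ± 0.03; limma adjusted p = 0.426), and its spread within the mutant groups was small, with an SD of 20.3 in males and 26.7 in females.

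Fa2h (ENSMUSG00000033579, chromosome 8, 111345135-111393824, minus strand) encodes the hydroxylase that gives myelin galactolipids their 2-hydroxylated chains. Wild-type males had 2240.4, 1989 and 2289 normalized counts, against 1627, 1938 and 2212 in mutant males. Wild-type females had 2434, 2702 and 2593, all above the mutant females with 2110.2, 2401 and 2377. Male groups overlapped, since mutant male 3 exceeded wild-type male 2. Fa2h had a difference of -11.4% in mutants (95% interval -20.1% to -1.82%; log2 -0.17 ± 0.07; limma adjusted p = 0.481). Without the 3 libraries low in choroid plexus markers the log2 difference was -0.31.

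The elongases lengthen fatty acids, and Elovl1 makes the saturated very long chains that Cers2 uses. Elovl1 (ENSMUSG00000006390, chromosome 4, 118428093-118432953, plus strand) had 814, 795 and 846 normalized counts in wild-type males and 667, 697 and 776 in mutant males, without overlap. In females it had 794, 881 and 827 in wild type and 759, 819 and 821 in mutants, which overlapped. Elovl1 had a difference of -8.62% (95% interval -14.6% to -2.20%; log2 -0.13 ± 0.05; limma adjusted p = 0.420). Its exons share 53 bases with Cdc20 on the other strand, a gene with a mean of 26.8 normalized counts.

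Elovl7 (ENSMUSG00000021696, chromosome 13, 108214404-108285683, plus strand), an elongase found at high level in oligodendrocytes among brain cells, stood apart. Wild-type males had 1789.5, 1658 and 1700.3 normalized counts, against 1539.7, 889 and 1149.7 in mutant males. Wild-type females had 1115, 1499.8 and 2045, against 1345, 1346 and 1599.7 in mutant females. Its 3 lowest libraries were mutant males 2 and 3 and wild-type female 1, the same 3 that were lowest in choroid plexus markers, and no other lipid gene had that order. Sgms2, which encodes a sphingomyelin synthase, was named after its values were seen and did the same, with 126 to 154 normalized counts in the 3 libraries and 267 to 518 in the other 9. The male Elovl7 difference was -0.56 on the log2 scale and the female -0.08, and the difference between them was -0.48 (95% interval of the ratio, as a percent change, -53.6% to 10.9%; limma adjusted p = 0.735). Without the 3 libraries these values were -0.16 in males, -0.30 in females and 0.14 for their difference. With a choroid plexus score, the mean log2 level of the 10 markers, added to the fit they were -0.11, -0.30 and 0.20. Averaged over the sexes Elovl7 had a difference of -19.9% (95% interval -35.6% to -0.340%; log2 -0.32 ± 0.14; limma adjusted p = 0.552), -0.23 on the log2 scale without the 3 libraries, and -0.21 without wild-type female 3. The male value also depended on single libraries: it was -0.37 without mutant male 2, and the female value was 0.14 without wild-type female 3.

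**Figure D2:**
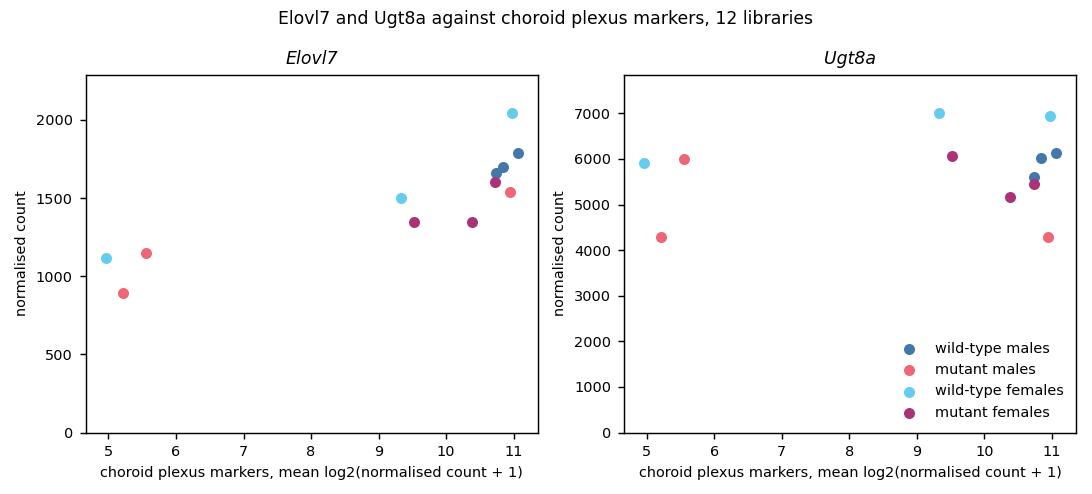
Normalized counts of Elovl7 (left) and Ugt8a (right) in the 12 libraries against the choroid plexus score, the mean log2(normalized count + 1) of 10 markers. The 3 libraries with scores of 4.96 to 5.55 hold the 3 lowest Elovl7 counts (889, 1115 and 1149.7), while their Ugt8a counts (4295 to 6001) lie within those of the other 9 (4292 to 7011).

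Aspa, Gltp and Plekhb1 act around the synthetic pathway. Aspa (ENSMUSG00000020774, chromosome 11, 73304992-73329596, minus strand) encodes aspartoacylase, which releases acetate for lipid synthesis from neuronal N-acetylaspartate and is lost in Canavan disease. Wild-type males had 917, 821 and 849 normalized counts, above the 682, 789 and 775 of mutant males without overlap, and wild-type females had 823, 1034 and 939 against 745, 944 and 844, with overlap. Aspa had a difference of -11.4% (95% interval -20.2% to -1.59%; log2 -0.17 ± 0.07; limma adjusted p = 0.489), and -0.28 on the log2 scale without the 3 libraries low in choroid plexus markers. Gltp (ENSMUSG00000011884, chromosome 5, 114669398-114690984, minus strand) encodes a cytosolic glycolipid transfer protein and not an enzyme. Male counts were 1679, 1499.7 and 1643 (wild type) against 1255, 1318 and 1694 (mutant), and female counts 1626, 1819 and 1859.8 against 1419.6, 1596 and 1576. As for Ugt8a, mutant males 1 and 2 were low and mutant male 3 was not, while in females the genotypes did not overlap. Gltp had a difference of -12.8% (95% interval -21.5% to -3.11%; log2 -0.20 ± 0.07; limma adjusted p = 0.427).

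Plekhb1 (ENSMUSG00000030701, chromosome 7, 100642892-100662414, minus strand) encodes a membrane protein with a pleckstrin homology domain and is likewise no enzyme. It had 7069, 6582 and 7362 normalized counts in wild-type males and 6016, 6652 and 6939 in mutant males, which overlapped. In females the 8206, 8575 and 8266 of wild type all lay above the 6883, 7714 and 7358 of mutants. It was the only one of the 10 genes with an unadjusted p under 0.05 in females (0.00676; log2 -0.19 ± 0.06; limma adjusted p = 0.584), where 3.07% of all genes were lower at that level. Averaged over the sexes its difference was -9.63% (95% interval -15.1% to -3.79%; log2 -0.15 ± 0.04; limma adjusted p = 0.359).

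**Figure D3:**
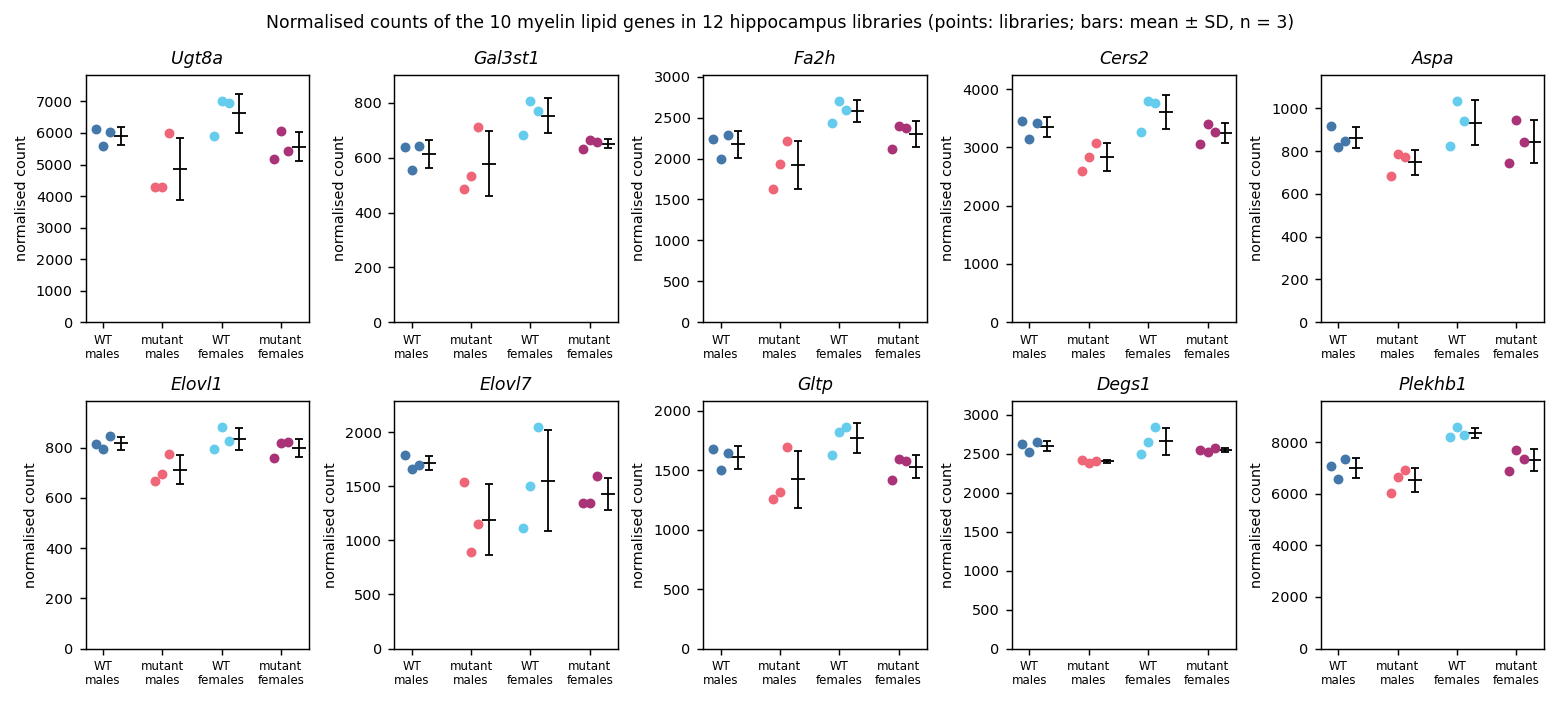
Normalized counts of the 10 genes in each library, with points for libraries and bars for the group mean ± SD (n = 3). Mutant male 3 lies near the wild-type males for Ugt8a, Gal3st1, Fa2h and Gltp, while Degs1 has narrow mutant groups (SD 20.3 and 26.7).

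Counted by separation of the libraries, the 10 genes divided between the sexes. All 3 mutant males lay below all 3 wild-type males for 5 genes (Cers2, Degs1, Elovl1, Elovl7 and Aspa), as for 7.68% of all genes. All 3 mutant females lay below all 3 wild-type females for 4 others (Gal3st1, Fa2h, Gltp and Plekhb1), as for 5.66% of all genes. None did so in both sexes (0.600% of all genes), and for none were all 6 mutants below all 6 wild-type libraries (0.240%). In males 5 of the 10 had an unadjusted p under 0.05 with a lower level (Ugt8a, Cers2, Elovl1, Elovl7 and Degs1), against 6.23% of all genes. Limma and edgeR called no gene in either sex alone (0%), DESeq2 called none of the 5 lipid genes to which it gave an adjusted p in males (background 0.891%) and none of the 10 in females (0.113%), and limma's adjusted p-values for the 10 genes were 0.410 to 0.823 in males and 0.584 to 0.970 in females. The test of the difference between the male and female effects gave adjusted p-values of 0.735 to 0.988 and an unadjusted p under 0.05 for 0 of the 10, where 5.41% of all genes were lower by more in males at that level. The lower levels were thus not shown to differ between the sexes, and the separation of different genes in each sex is a description.

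Per kilobase of exon, which allows levels of different genes to be compared, Plekhb1 was the most abundant, with a mean of 1967 normalized counts per kb and a range of 1620.3 to 2309 over the 12 libraries. Ugt8a followed with 1265 (946 to 1546), Degs1 with 984, Gltp with 898, Cers2 with 886 and Fa2h with 746. The lowest were Elovl7 with 367, Gal3st1 with 318, Elovl1 with 290.3 and Aspa with 142 (115 to 174). The ranges of neighbours in this order did not overlap between Plekhb1 and Ugt8a, between Fa2h and Elovl7, and between Elovl1 and Aspa. Gltp and Cers2 could not be ordered beyond their spread, with Gltp above Cers2 in 8 of 12 libraries, and the same count held for Elovl7 above Gal3st1. Along the route to sulfatide, the galactosyltransferase Ugt8a lay above the desaturase Degs1 in 12 of 12 libraries on this scale, and the sulfotransferase Gal3st1 lay below both.

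Across the libraries the genes moved together, apart from Elovl7. Mutant male 1 had the lowest level of 8 of the 10 genes, and mutant male 2 the lowest of the other 2 and the second lowest of 6. Wild-type female 2 was highest for 7 and wild-type female 3 for the other 3. Pearson's r of a gene with the mean profile of the other 9, each scaled, was 0.80 to 0.99 for all genes except Elovl7, which had 0.44 (12 libraries, log2 values). With the mean of each group subtracted, so that only the spread within groups remains, it was 0.97 for Cers2, 0.94 for Gltp and 0.90 for both Ugt8a and Gal3st1, but 0.43 for Degs1 and 0.14 for Elovl7. Libraries share depth and tissue composition across all genes, so these values describe the libraries. Like profiles were sought among tested genes outside the 10, under a stricter cut on the mean count than the filter, apart from genes not reported here. Those most like the mean of the 10 were Mal (r = 0.99), Tspan2 (0.98), Pdlim2 (0.97), Prima1 (0.97) and Cldn11 (0.97). With group means subtracted they were Slc44a1 (0.97), Mal (0.97), Tppp3 (0.97), Ermn (0.96) and Pdlim2 (0.96). Mal and Cldn11 encode membrane proteins of the myelin sheath.

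**Figure D4:**
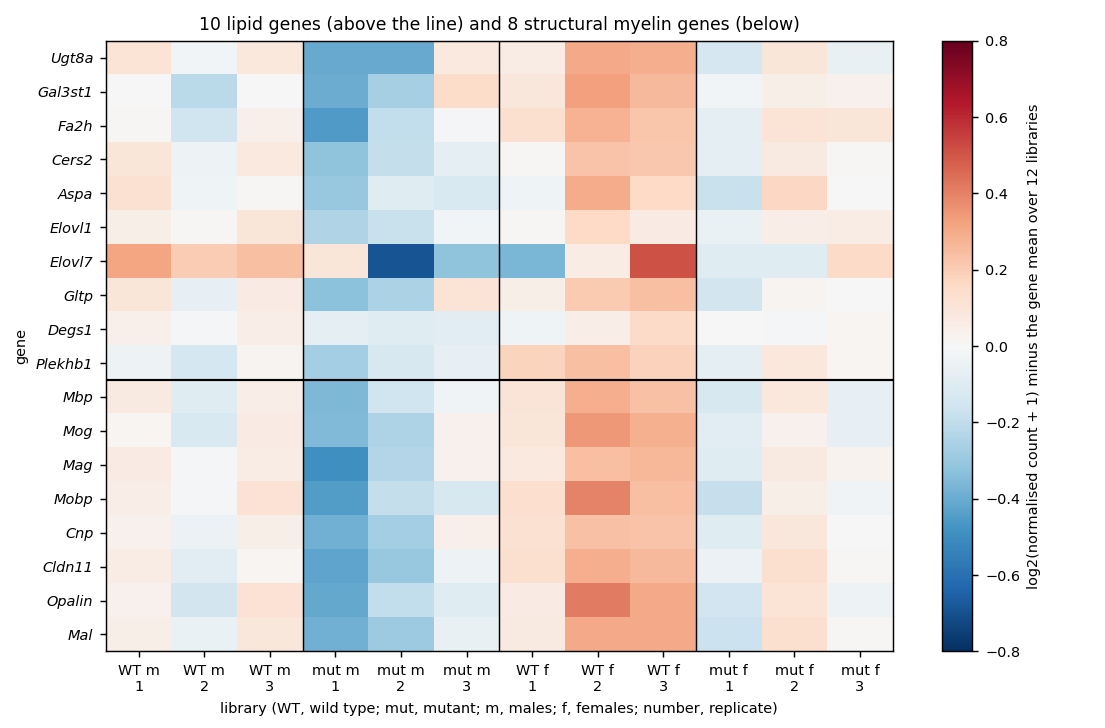
Level of each gene in each library relative to its mean over the 12 libraries, on the log2 scale, for the 10 lipid genes above the line and 8 structural myelin genes below it. Mutant male 1 is lowest for 8 of 10 lipid and 8 of 8 structural genes, and Elovl7 follows its own order.

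The structural proteins of myelin (Mbp, Mog, Mag, Mobp, Cnp, Cldn11, Opalin and Mal) had lower estimates in mutants for 8 of 8 genes, with a median log2 difference of -0.23 against -0.17 for the lipid genes. Mobp had the largest difference (-0.31 ± 0.06; limma adjusted p = 0.285), from 55505 ± 2610.1 normalized counts (SD, n = 3) in wild-type to 45004 ± 5128 in mutant males and from 64169 ± 5916 to 51576 ± 4234 in females. Mal differed by -0.26 ± 0.07 (adjusted p = 0.337). Limma called 0 of the 8, all 8 had an unadjusted p under 0.05, and DESeq2 called 4, where it called 1 of the 10 lipid genes. Summed structural counts ran from 254949.6 to 280763 in wild-type and 204660.3 to 260014 in mutant males, and from 288512 to 331719 in wild-type and 243765 to 282900.5 in mutant females. Transcription factors of the oligodendrocyte lineage had lower estimates for 8 of 8 genes (median -0.16). By p, Olig1 (-0.18 ± 0.04; adjusted p = 0.285) and Sox10 (-0.22 ± 0.05; adjusted p = 0.316) came first, while Myrf, named after its values were seen, had the largest difference (-0.25 ± 0.06; adjusted p = 0.316). Of these 8 factors limma called 0, 6 had an unadjusted p under 0.05, and DESeq2 called 3 (Olig1, Sox10 and Myrf). Markers of oligodendrocyte precursors were split, 5 lower and 3 higher, with a median of -0.03. Of these 8 markers 1 had an unadjusted p under 0.05, Gpr17, which was lower (-0.20 ± 0.07; limma adjusted p = 0.420). Whether the lipid genes differed from these lists was not tested. Neuronal markers lay higher in mutant males: their summed counts were 143285 to 148176 in mutant and 133424 to 137818 in wild-type males, without overlap, and 137401 to 140972 and 138326 to 144057 in females. In the average of both sexes all 8 neuronal markers had higher estimates in mutants (median 0.05). Of them 3 had an unadjusted p under 0.05, where 770 of all 17496 tested genes were higher at that level. In males all 8 were higher (median 0.09), while in females 4 were lower and 4 higher (median 0.001). A second list, of 6 hippocampal neuron markers (Prox1, Wfs1, Bok, Iyd, Fibcd1 and Dsp), was split. In the average 4 were higher and 2 lower (median 0.04), with 0 at an unadjusted p under 0.05. In males 3 were higher and 3 lower (median -0.009), and in females 3 and 3 (median 0.01). Markers of endothelial cells had higher estimates for 7 of 8 genes over both sexes (median 0.10), 2 of them at an unadjusted p under 0.05. In females 8 of 8 were higher (median 0.20), 3 of them at that level, against 669 of all 17496 tested genes. Limma called 0 of these markers. Their summed counts were 7893 to 10179 in mutant and 7660 to 7883 in wild-type females, without overlap, and 7530.5 to 8434 and 7405 to 7968 in males. Averaged over both sexes, 6 of 8 astrocyte markers (median 0.03) and 7 of 8 markers of microglia (median 0.03) had higher estimates. For astrocytes 7 were higher in males (median 0.08), while in females 3 were higher and 5 lower (median -0.01). For microglia 7 were higher in males (median 0.04) and 5 in females (median 0.03). The part of neuronal, endothelial, astrocyte and microglia markers in the lower level of the lipid genes was not tested.

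Genes that serve ceramide and fatty acids in most cell types had list medians close to that of all genes. Ceramide synthesis and use outside the 10 genes (17 genes) had a median of -0.01, with 12 lower and 5 higher, 0 called and 1 with an unadjusted p under 0.05. That gene was Ugcg, the glucosylceramide synthase that competes with Ugt8a for ceramide, and its estimate was higher in mutants (log2 0.11 ± 0.03; limma adjusted p = 0.359). Its normalized counts were 1792, 1832 and 1939 in wild-type and 2091, 2096 and 2147 in mutant males, without overlap, whereas females overlapped (1909 to 2052 and 1960.2 to 2071). Ormdl1, a regulator of serine palmitoyltransferase, had the next smallest p (-0.13 ± 0.08; adjusted p = 0.650). Fatty acid elongation in its other 10 genes had a median of 0.02, with 2 lower and 8 higher, and 1 of them had an unadjusted p under 0.05. This was Elovl6, which elongates saturated chains shorter than those of Elovl1 (-0.10 ± 0.04; adjusted p = 0.445), and Elovl2 had 0.07 ± 0.05 (adjusted p = 0.717).

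Acetate and fatty acid supply (11 genes) had a median of -0.01, with 7 lower and 4 higher. The 2 with an unadjusted p under 0.05 were the stearoyl-CoA desaturases, which make oleate. Scd1 had 5041, 4577 and 4832 normalized counts (wild type) against 4524, 4257 and 4523 (mutant) in males, and 5435, 5285 and 5539 against 4803, 4975 and 4817 in females. It was lower in all mutants than in all wild-type libraries of the same sex (log2 -0.14 ± 0.03; limma adjusted p = 0.285, DESeq2 adjusted p = 0.0114). Scd2 had a difference of -0.08 ± 0.03 (limma adjusted p = 0.440). Galactolipid breakdown in lysosomes (Galc, Arsa, Psap, Asah1, Gm2a and Glb1) had a median of -0.05, with 5 lower and 1 higher and 0 at an unadjusted p under 0.05. Galc, the galactosylceramidase that undoes the Ugt8a product, had -0.07 ± 0.04 (limma adjusted p = 0.592). Psap, the precursor of the activators of these enzymes, had -0.06 ± 0.04 (limma adjusted p = 0.725). These values are averages over the sexes. In males all 6 breakdown genes had lower estimates (median -0.12), 4 of them at an unadjusted p under 0.05, against 6.23% of all genes. In females 1 was lower and 5 higher (median 0.05), with 0 at that level.

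**Figure D5:**
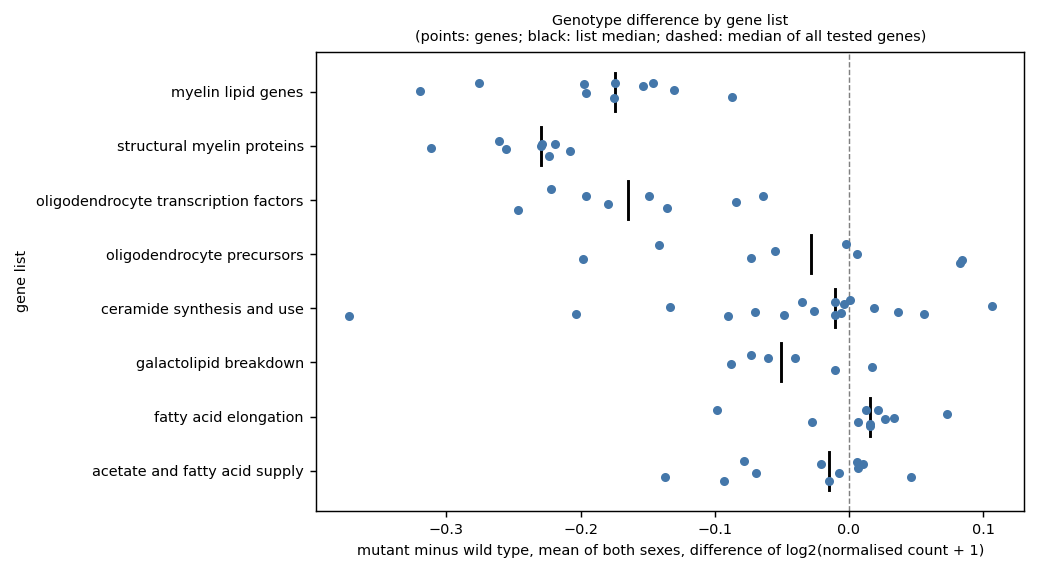
Mutant minus wild-type difference of log2(normalized count + 1), averaged over the sexes, for each gene of each list, with the list median in black and the median of all tested genes dashed. The 10 lipid genes (median -0.17), 8 structural genes (-0.23) and 8 transcription factors (-0.16) lie wholly below 0, while the other lipid lists have medians of -0.05 to 0.02.

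Females had higher estimates than males for all 10 genes, averaged over the genotypes, with log2 differences of 0.05 (Elovl7) to 0.25 (Fa2h) and a median of 0.14. None passed limma's threshold (adjusted p 0.153 to 0.990), where 12 genes did (0.0686%), and 5 of the 10 had an unadjusted p under 0.05, against 3.54% of all genes higher in females. Plekhb1 had the smallest p, 15.6% higher in females (95% interval 8.59% to 23.1% higher; log2 0.21 ± 0.04; limma adjusted p = 0.153), and DESeq2 called it (adjusted p = 0.00132) as 1 of 48 genes (0.274%). All wild-type females lay above all wild-type males for Gal3st1, Fa2h and Plekhb1, as for 6.45% of all genes, and all mutant females above all mutant males for Degs1, as for 5.85%. The structural myelin genes had higher estimates in females for 8 of 8 genes (median 0.20). Without the 3 libraries low in choroid plexus markers, the log2 estimates were 0.39 for both Gal3st1 and Fa2h and -0.041 for Elovl7. Those of the other 7 genes were 0.08 to 0.31. That fit leaves mutant male 1 as the only mutant male. Mutant male 1 had the lowest level of all 12 libraries for 8 of the 10 genes.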

How the data were processed

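RNA-seq of hippocampus was compared in 12 libraries, grouped by genotype and sex from the sample titles. The values the authors deposited are a signal for each Ensembl gene, namely reads over a library's size factor. This was read from the values, since 100% of the values of each library were whole multiples of 1 step (relative tolerance 1e-06). DESeq2, HTSeq, Trimmomatic 0.35, TopHat2 2.1.0 and the build GRCm38 are listed, without roles, by the submitters' processing notes. Per the labels' protocols, libraries were made with a TruSeq kit (v2), which does not keep strand. Symbols and positions came from GENCODE M21 (45143 of 46078 IDs matched), and promoter sequences from RefSeq.

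Values were taken as log2(value + 1), which understates the change of low genes. Genes were tested where their mean reached 10 (17496 genes), and 28582 were not. The design had named edgeR for raw counts and limma for size-factor normalized values, so limma 3.58.1 (trend, R 4.3.3, 1 mean per group over all 12 libraries) was used, with Benjamini-Hochberg adjustment over all tested genes at 0.05. Each ± on a log2 difference is a standard error, and 95% intervals are limma's. The same contrasts were run on recovered reads with edgeR 4.0.16 and DESeq2 1.42.0. All 3 tools were tested on simulated counts with 200 changed genes.

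The 10 genes, the gene lists, and the rule naming in each further list the genes called or otherwise the 2 with the smallest p were chosen with earlier results of these data known. 1 gene that the structural list had held is not reported here. Alternatives were other normalizations, filters and pseudocounts, a replicate block, the sex compared alone, each library left out, and 2 added with earlier results known: leaving out the 3 libraries low in choroid plexus markers, and that marker score as a covariate.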

Additional observations from a re-analysis of the deposited data

Results flagged for a closer look

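Asah1, which encodes the lysosomal acid ceramidase and belongs to the galactolipid breakdown list, differed between the sexes in its genotype effect before correction. Its normalized counts were 1364, 1371 and 1398 in wild-type males and 1341, 1238 and 1272 in mutant males, all lower, while wild-type females had 1246, 1207 and 1319.5 and mutant females 1327, 1335 and 1328, all higher. The male minus female difference of the log2 genotype effects was -0.18 (SE 0.06), and it did not pass the correction over all genes (limma adjusted p = 0.619), with an unadjusted p under 0.05. The genotype effect of all 6 genes of this list was lower in males than in females. The libraries lowest in choroid plexus markers, mutant males 2 and 3 and wild-type female 1, had Asah1 counts of 1238, 1272 and 1246, which are among the 4 lowest of the 12.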

How the results depend on the processing

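Limma's call of 0 of the 10 lipid genes held in every contrast under the other filters, pseudocounts and normalizations, edgeR, the covariate and each single library left out (0 to 0). In the averaged genotype effect DESeq2 called 1, and the fit without the 3 libraries low in choroid plexus markers called 3. For females against males these fits called 1 and 2. Counts over all genes moved more. In the averaged effect (1 gene) they were 75 with DESeq2, 82 without the 3 libraries, 0 with upper-quartile factors, 0 without a filter, 0 with the replicate block and 0 to 8 with 1 library left out. In males (0) they were 35 with DESeq2, 12 without the 3 libraries and 0 to 1 with 1 library left out, and in females (0) 11, 1 and 0 to 1. For the sex difference (0) they were 3, 2 and 0 to 1, and for females against males (12) 48, 34 and 11 to 18. The cause of these moves was not tested. The fit without the 3 libraries leaves 1 mutant male.

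With 1 library left out, lower estimates were found for 10 of 10 genes in the average, 9 to 10 in males, 9 to 10 in females, and 4 to 9 (7 with all libraries) for the sex difference. For females against males the count was 0 to 1, and 1 without the 3 libraries. Signs changed in few estimates, 1 of 240 in males and 1 of 240 in females. Gal3st1 in males ran from -0.26 to 0.012 with 1 library left out (0.012 without mutant male 1), and Elovl7 in females from -0.30 to 0.14 (0.14 without wild-type female 3). The Elovl7 sex difference became 0.14 without the 3 libraries and 0.20 with the covariate. Its female minus male estimate (0.05) ran from -0.057 (without wild-type female 3) to 0.16 with 1 library left out, below 0 also without mutant male 2, and was -0.041 without the 3 libraries. Upper-quartile factors shifted the median of all genes by at most 0.05, and 42.4% of all genes then had lower estimates in males and 59.3% in females, against 49.4% and 49.5%. Same-numbered libraries of different groups had correlations of -0.58 to 0.29 after subtracting group means. These values gave no sign of pairing by number, but with 3 libraries a group they cannot exclude it. The replicate block called 0 of the 10 genes in each contrast. Precision was limited by 3 libraries a group: the averaged Elovl7 interval ran from -35.6% to -0.340%.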
